A study of Mus musculus with 17 samples.

Results

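The smooth muscle contractile genes described here are Acta2, Myh11, Tagln, Cnn1, Des, Actg2, Lmod1, Myocd, Smtn and Synpo2. They were taken by gene symbol, and each of the 10 symbols had 1 row among the 31245 genes of the count table. The table holds RNA of whole mouse lung from 17 libraries in 6 groups, given by 3 genotypes and 2 kinds of drinking water. Wild-type (WT) mice were purchased Sv/129 animals. Mice null for PPARα (KO) and mice carrying human PPARα instead (KI) were bred from null and human PPARα heterozygous pairs, so that breeding source and genotype cannot be told apart between WT and the other groups. PPARα is a nuclear receptor that controls lipid metabolism. From 6 weeks of age all mice were kept on a diet modelled on that of adult people, and all drinking water held 0.5% sucrose. Vehicle mice drank this water alone, and PFOA mice drank it with 6.2 μg/mL perfluorooctanoic acid (PFOA), a long-chain fluorinated surfactant, for 14 weeks. WT vehicle had 2 libraries (107 and 122). WT PFOA (50, 56 and 65), KO vehicle (137, 145 and 149), KO PFOA (52, 154 and 155), KI vehicle (102, 116 and 135) and KI PFOA (57, 80 and 139) had 3 each. The sources used here do not say in so many words that each library was a separate animal, and the p-values measure the spread between these libraries.

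In the lung, smooth muscle lies around the airways and in the walls of blood vessels. Its contractile genes encode actin and myosin filaments, the proteins that bind and anchor them, and regulators of filament assembly. Many of them are switched on together by serum response factor, a protein that binds the CArG box in their promoters, and by its partner myocardin, the product of Myocd. In whole-lung RNA a lower level of such a gene can mean fewer muscle cells in the piece of tissue or less RNA per muscle cell, and these cannot be told apart.

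The libraries held 4116118 to 9237356 estimated counts (median 7524757), so that 3 counts equal 0.325 to 0.729 CPM (counts scaled to a common library size). All 10 contractile genes were well above this in every library, and the lowest count of any of them was 44, for Myocd. Library 122 (WT vehicle) and library 137 (KO vehicle) stood apart in composition. Protein-coding genes took 65.3% and 61.3% of their counts and 74.4% to 80.4% of the others, while ribosomal RNA, nuclear and mitochondrial together, took 16.9% and 20.3% against 6.73% to 12.3%. Ppara, the targeted gene, was at 8.82 to 11.7 CPM in the libraries labelled KO, above the 4.39 to 7.21 CPM of WT, so it was not lower under that label. The count sums the whole gene, and reads outside the deleted part do not test the deletion. KO and KI are used here as the labels give them. All 6 KO libraries were from females, while WT had 2 females and 3 males and KI 4 females and 2 males. Both WT vehicle libraries carried the same i5 sequencing index, as did all 3 KO PFOA libraries.

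Smooth muscle α-actin, the product of Acta2, had the highest mean level per length of the 10 genes. Levels per length are CPM divided by the kilobases of annotated exon, which allows genes to be compared. Acta2 (ENSMUSG00000035783, mm10 chromosome 19, 34241090 to 34255590, minus strand) was at 109 CPM per kilobase on average over the 17 libraries. Myh11 (ENSMUSG00000018830, chromosome 16, 14194535 to 14291372, minus strand), the heavy chain of smooth muscle myosin, was at 108 CPM per kilobase. The actin was above the myosin in 11 of the 17 libraries, so these neighbours did not differ beyond their spread.

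Because the contractile genes were high and low in the same libraries, the promoters were read for the CArG box that serum response factor binds. RefSeq windows from 250 bases before to 50 bases after the start were at hand for 6 of the 10 genes (Acta2, Cnn1, Des, Lmod1, Smtn and Synpo2, build GRCm38.p6). An exact CArG box (CC, an inner run of A and T letters, GG, a pattern that reads the same on both strands) was in 0 of these 6 windows and in 1.63% of all 32851 windows. With at most 1 inner letter off, it was in 1 of the 6, that of Acta2, and in 9.98% of all windows. The Acta2 window holds such an element 84 to 75 bases before the RefSeq start and another 34 to 25 bases before it. RefSeq starts can differ from the gene coordinates given here. Most of the Acta2 window and all of the Smtn window lie inside those coordinates. The sequence is shown because it carries both elements, in capitals, and is read 5′ to 3′ on the minus strand of chr19:34255324-34255623.

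Acta2 promoter: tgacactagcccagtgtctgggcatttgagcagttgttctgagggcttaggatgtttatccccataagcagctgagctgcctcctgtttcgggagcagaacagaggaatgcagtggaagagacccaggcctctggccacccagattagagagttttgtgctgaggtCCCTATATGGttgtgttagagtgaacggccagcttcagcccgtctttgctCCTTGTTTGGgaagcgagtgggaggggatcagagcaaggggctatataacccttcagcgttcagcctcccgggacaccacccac

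A match of letters is a description and not a binding site that was measured. Myh11, Tagln, Actg2 and Myocd were not searched.

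Genes of other filament proteins and of actin-binding proteins came next in level. Tagln (ENSMUSG00000032085, chromosome 9, 45929619 to 45936058, minus strand) encodes transgelin, which binds actin filaments, and was at 74.4 CPM per kilobase. Des (ENSMUSG00000026208, chromosome 1, 75360329 to 75368579, plus strand) encodes desmin, the intermediate filament of all muscle types, and was at 69.5. Tagln was above Des in 13 of 17 libraries. Actg2 (ENSMUSG00000059430, chromosome 6, 83512905 to 83536265, minus strand), the enteric γ-actin of smooth muscle, was at 35.1 CPM per kilobase. It lay below Des and above Cnn1 in every library. Cnn1 (ENSMUSG00000001349, chromosome 9, 22099216 to 22109630, plus strand) encodes calponin, which binds actin and holds back the myosin motor, and was at 27.9. Smtn (ENSMUSG00000020439, chromosome 11, 3517523 to 3540612, minus strand) encodes smoothelin, a cytoskeletal protein of contractile smooth muscle, and was at 22.9. Cnn1 was above Smtn in 10 of the 17 libraries, so these neighbours did not differ beyond their spread.

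Lmod1 (ENSMUSG00000048096, chromosome 1, 135324807 to 135368065, plus strand) encodes leiomodin, which starts new actin filaments in smooth muscle, and was at 12.7 CPM per kilobase. Synpo2 (ENSMUSG00000050315, chromosome 3, 123076519 to 123236149, minus strand) encodes synaptopodin-2, an actin-bundling protein of muscle, and was at 9.67. Lmod1 was the higher in 16 of the 17 libraries. Myocd (ENSMUSG00000020542, chromosome 11, 65176561 to 65269989, minus strand) was the lowest in every library, at 2.25. The actins Acta2 and Actg2 shared no stretch of 80 bases, the mean read length, with each other or with another gene in their annotated transcripts. For Tagln, 52.3% of such stretches also lay in Pcsk7 or Gm48529, which overlap it on the opposite strand. The share was 6.17% for Smtn, 3.81% for Des and 0% for the other 7 genes. The use of strand in the counting is not given in the sources used here, so the counts of Tagln are less certain than the rest.

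**Figure D1:**
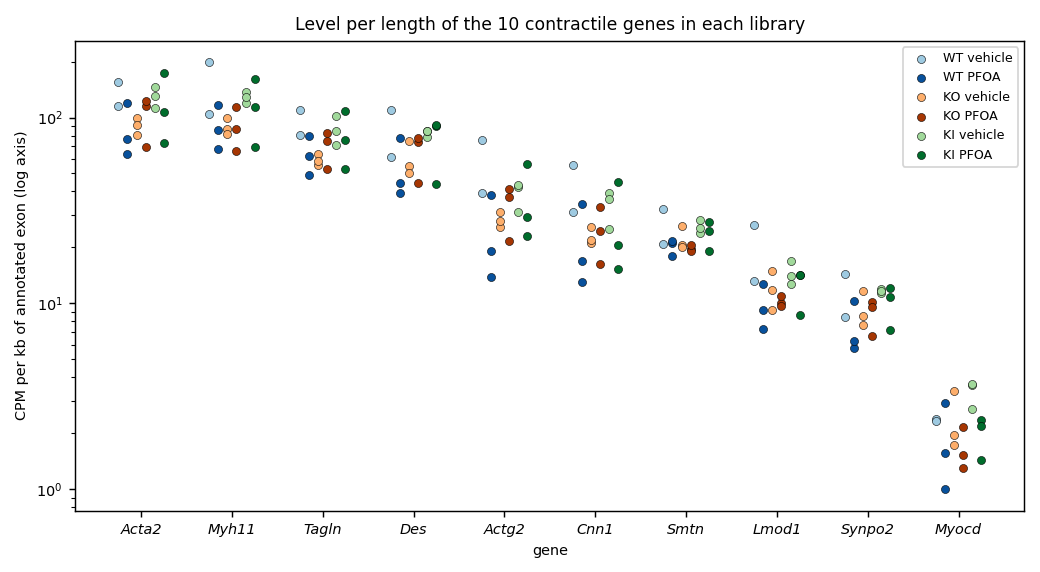
Level per length of the 10 contractile genes in each of the 17 libraries. The vertical axis gives CPM per kilobase of annotated exon on a log scale, points are libraries coloured by group, and the genes are ordered by their mean, from 109 for Acta2 to 2.25 for Myocd.

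In WT lungs all 10 contractile genes had a lower mean on PFOA than on vehicle, and none of them passed the test. The median log2 fold change of the 10 genes was -0.66, while that of all 26946 genes tested was 0.036. A gene was called changed when its adjusted p was under 0.2 and its fold over 2 (quasi-likelihood test of edgeR, Benjamini-Hochberg adjustment over all genes). By this rule 0 of the 10 genes were called here with edgeR or with DESeq2, and edgeR called 0% of all genes. The study's own list of genes changed in WT on PFOA, made with DESeq2, holds Lmod1 as lower. Its values there lie close to both thresholds of the study. The DESeq2 fit here took all 17 libraries together and may differ from the study's fit, so it is not a repeat of that test. At an unadjusted p under 0.05, 6 of the 10 were lower, namely Myh11, Tagln, Cnn1, Actg2, Lmod1 and Synpo2, against 4.23% of all genes.

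Lmod1 had the smallest p of the 10 genes in WT. It was at 52.1 and 104 CPM in the vehicle libraries 107 and 122, and at 28.8, 36.3 and 50.1 CPM in the PFOA libraries 50, 56 and 65. All PFOA libraries lay below both vehicle libraries, the highest of them by little. The log2 fold change was -1.02 (standard error (SE) 0.28, adjusted p = 0.458 with edgeR).

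Actg2 had the lowest fold change. Its vehicle libraries 107 and 122 were at 60.9 and 118 CPM, and its PFOA libraries 50, 56 and 65 at 21.5, 29.8 and 59.4 CPM. Here too the groups did not overlap, but library 65 was close to library 107. The log2 fold change was -1.27 (SE 0.39, adjusted p = 0.482 with edgeR). Tagln was the other gene without overlap, with 161 and 219 CPM on vehicle and 97.1, 124 and 158 CPM on PFOA. Its log2 fold change was -0.59 (SE 0.26, adjusted p = 0.638 with edgeR). Such a separation, all PFOA libraries below all vehicle libraries, was seen for 3 of the 10 genes and for 10.9% of all genes tested.

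The myosin and calponin genes overlapped between the groups through library 65. Myh11 was at 793 and 1510 CPM on vehicle and at 513, 655 and 887 CPM on PFOA. Its log2 fold change was -0.75 (SE 0.32, adjusted p = 0.619 with edgeR). Library 65 lay above library 107 for this gene. Cnn1 was at 84.6 and 151 CPM on vehicle and at 35.6, 46.5 and 93.3 CPM on PFOA, a log2 fold change of -1.01 (SE 0.41, adjusted p = 0.590 with edgeR). Acta2 was at 252 and 343 CPM on vehicle and at 139, 168 and 263 CPM on PFOA, a log2 fold change of -0.65 (SE 0.31, adjusted p = 0.677 with edgeR). Both genes thus had the same order of libraries, with 122 highest and 50 lowest.

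Des, Synpo2 and Smtn overlapped too. Their log2 fold changes were -0.68, -0.62 and -0.39, with standard errors of 0.33, 0.28 and 0.19 and adjusted p of 0.679, 0.643 and 0.679 (edgeR). In each of these genes at least 1 PFOA library lay above vehicle library 107. Myocd differed from the rest in its pattern. Its vehicle libraries were nearly equal, at 15.3 and 14.9 CPM, and its PFOA libraries at 10.01, 6.43 and 18.6 CPM lay on both sides of them. The log2 fold change was -0.36 (SE 0.36, adjusted p = 0.838 with edgeR), and 0.053 once the i5 index was added as a covariate.

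**Figure D2:**
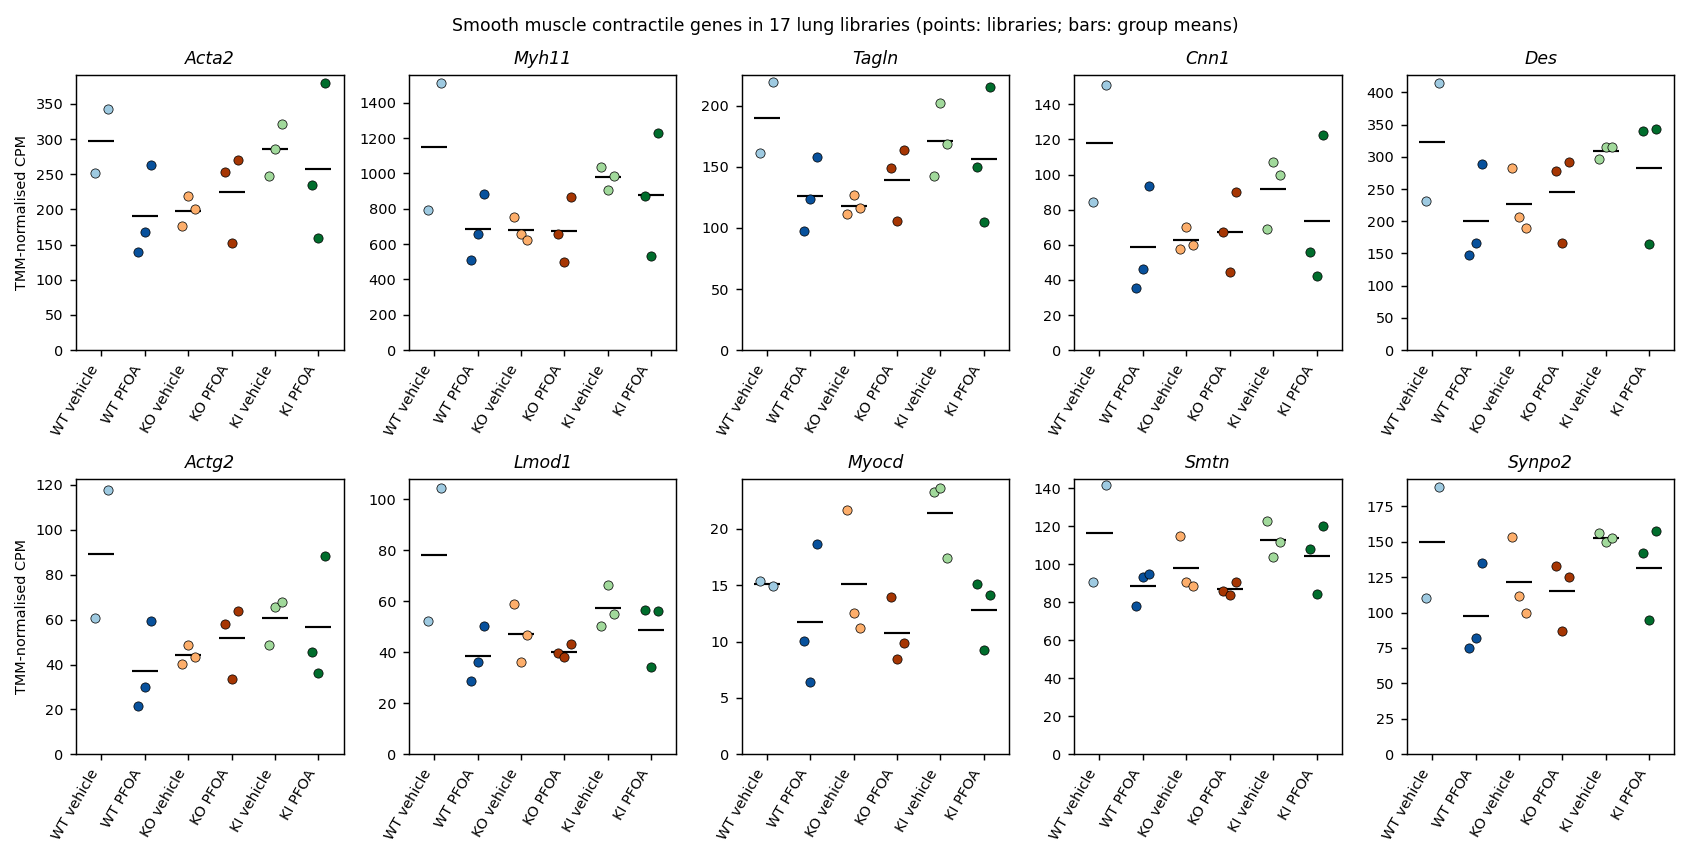
CPM after TMM normalisation of each contractile gene by group, on linear axes from 0, with 1 point per library and a bar at the group mean. Library 122, the right-hand WT vehicle point, lies above the WT PFOA points for every gene but Myocd.

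The size of the WT difference depended on which vehicle library was kept. Library 122 held the highest level over all 17 libraries of 8 of the 10 genes, the exceptions being Acta2, highest in KI PFOA library 139, and Myocd, highest in KI vehicle library 116. Without library 122 all 10 genes were still lower on PFOA, with a median log2 fold change of -0.36, and 0 had an unadjusted p under 0.05. Without library 107 the median was -0.996, and 5 genes were called, namely Myh11, Cnn1, Des, Actg2 and Lmod1, together with 1672 of all genes. Either way 1 WT vehicle library remained, and the test assumed that it varies like the other groups. Leaving out PFOA library 50 or 56 left 2 of the 10 genes at an unadjusted p under 0.05, as did adding the i5 index as a covariate. Leaving out library 65 gave 9. The medians were -0.47 without library 50, -0.57 without library 56, -0.97 without library 65 and -0.37 with the index. The share of all genes at this level is not given here for these fits. The counts thus cannot be read as particular to the 10 genes.

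**Figure D3:**
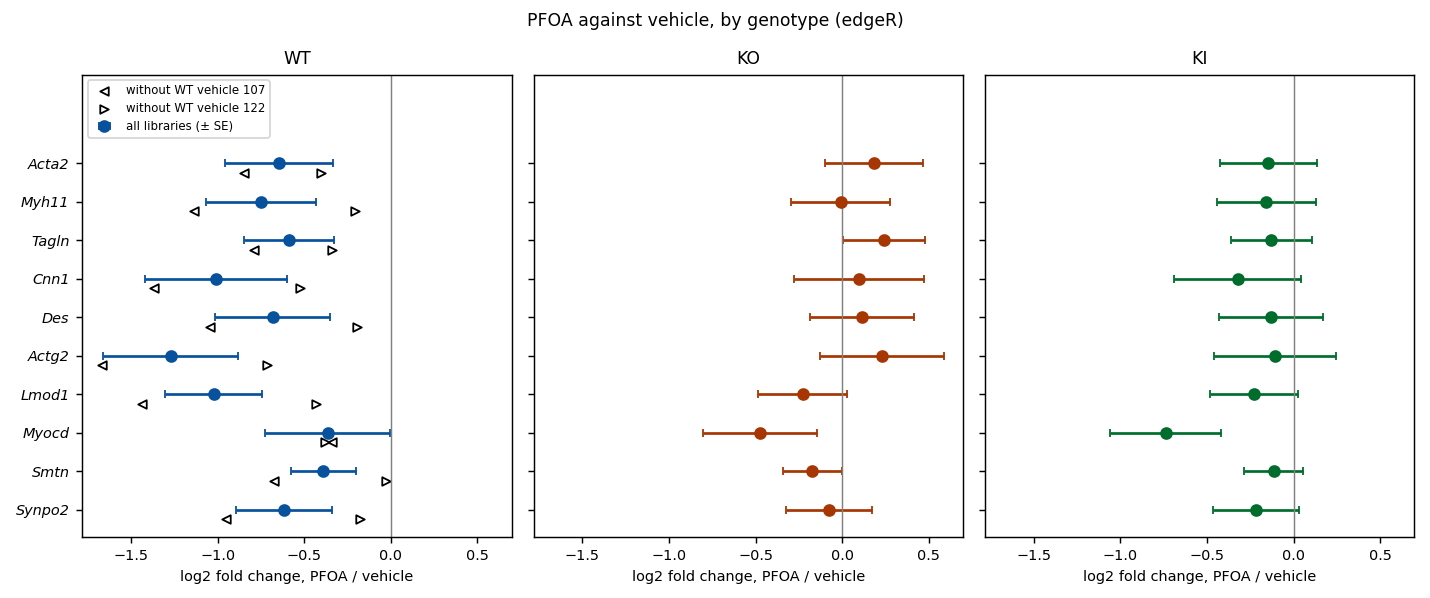
Log2 fold change of PFOA over vehicle for the 10 genes in WT, KO and KI (horizontal axis), with bars of 1 standard error from edgeR. Open triangles in the WT panel give the value without vehicle library 107 or without library 122, which lie on either side of the full value for every gene, close together for Myocd alone.

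In the libraries labelled KO, the contractile genes showed no common direction on PFOA. Of the 10 genes 5 were lower and 5 higher, with a median log2 fold change of 0.045 (all genes -0.033). The values ran from -0.47 for Myocd (SE 0.33, adjusted p = 0.623 with edgeR) to 0.24 for Tagln (SE 0.24, adjusted p = 0.727 with edgeR). Of the 10 genes 0 were called with edgeR or DESeq2 (0% of all genes with edgeR), and 0 had an unadjusted p under 0.05 in either direction, against 9.79% of all genes. Without KO vehicle library 137 these were 0 of the 10 and 4.14% of all genes. The groups overlapped for every one of them. Actg2 was at 40.1, 48.5 and 43.4 CPM in vehicle libraries 137, 145 and 149, and at 58.1, 33.6 and 63.8 CPM in PFOA libraries 52, 154 and 155. The PFOA libraries spread to both sides of the vehicle libraries, with library 154 the lowest. Lmod1 was at 59.0, 36.3 and 46.7 CPM on vehicle and at 39.6, 38.0 and 43.2 CPM on PFOA.

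In the libraries labelled KI, all 10 genes had a log2 fold change below 0, most of them by little. The median was -0.15 (all genes 0.0052), the values ran from -0.74 for Myocd to -0.11 for Actg2, and 0 genes were called with edgeR or DESeq2 (0% of all genes with edgeR). The value of Actg2 turned to 0.029 without PFOA library 57 and to 0.13 without PFOA library 80. Without library 80, 4 of the 10 genes were lower and the median was 0.055, and without library 139 all 10 were lower with a median of -0.45. The KI PFOA libraries differed among themselves. The summed level of the 10 genes was 1260 CPM in library 80, 2017 in library 57 and 2727 in library 139, while the KI vehicle libraries held 2195 to 2295.

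Myocd was the 1 gene in KI with an unadjusted p under 0.05, which 1.12% of all genes had with a lower level on PFOA. It was at 23.2, 23.5 and 17.4 CPM in vehicle libraries 102, 116 and 135, and at 15.1, 9.25 and 14.1 CPM in PFOA libraries 57, 80 and 139. The groups did not overlap, as for 3.78% of all genes with PFOA the lower. The log2 fold change was -0.74 (SE 0.32, unadjusted p = 0.0322, adjusted p = 1.0 with edgeR). The other 9 genes overlapped between the groups.

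In the additive fit of genotype and exposure, the 9 PFOA libraries were set against the 8 vehicle libraries. All 10 genes were lower on PFOA, with a median log2 fold change of -0.28 (all genes -0.012), and 0 were called with edgeR or DESeq2 (0% of all genes with edgeR). There were 3 genes with an unadjusted p under 0.05, a level that 4.47% of all genes reached in this direction. They were Myocd at -0.54 (SE 0.19, adjusted p = 0.473 with edgeR), Lmod1 at -0.46 (SE 0.16, adjusted p = 0.485 with edgeR) and Smtn at -0.21 (SE 0.099, adjusted p = 0.593 with edgeR). The other 7 ranged from -0.38 for Cnn1 to -0.13 for Tagln, and Acta2, Myh11, Des, Actg2 and Synpo2 were at -0.18, -0.28, -0.20, -0.33 and -0.28. Without WT vehicle library 122 the number at this level was 1, against 5.79% of all genes in either direction, and the median was -0.11. Without KI PFOA library 139 the number was 7 and the median -0.36. The share of all genes in that fit is not given here.

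The genotypes were compared over both exposures with the same additive terms. All 10 genes were lower in KO than in WT (9 with RLE factors or DESeq2, where Synpo2 was not), with a median log2 fold change of -0.18 (all genes 0.024), and 0 were called with edgeR or DESeq2 (2.36% of all genes with edgeR). None had an unadjusted p under 0.05, against 12.9% of all genes. Myh11 was at -0.36 (SE 0.22, adjusted p = 0.536 with edgeR). Without library 122, 4 of the 10 genes were lower in KO, and with sex as a covariate 6 were.

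In KI against WT, 9 of the 10 genes were higher, with a median of 0.11 (all genes 0.0067), and Myocd had the highest value, 0.30 (SE 0.23, adjusted p = 0.803 with edgeR). Of the 10, 0 were called with edgeR or DESeq2 (1.37% of all genes with edgeR), and 0 had an unadjusted p under 0.05, against 9.65% of all genes. Without library 122 all 10 were higher, with a median of 0.33. Then 3 genes had an unadjusted p under 0.05, against 9.02% of all genes. With the i5 index as a covariate 3 genes were at this level too, with a median of 0.34. The share of all genes in that fit is not given here. Without WT PFOA library 50 or KI PFOA library 139, 5 of the 10 were lower, with medians of 0.020 and 0.011. All 12 heart muscle markers were higher in KI than in WT, with a median of 1.60, and their part was not tested. Of these, 5 had an unadjusted p under 0.05, against 9.65% of all genes in either direction.

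KO was lower than KI for all 10 genes, with a median of -0.32 (all genes 0.011) and a range from -0.45 for Myh11 to -0.23 for Smtn. Of the 10 genes 0 were called with edgeR or DESeq2, against 0.00742% of all genes with edgeR. Myh11 alone had an unadjusted p under 0.05 (0.0444, standard error 0.21, adjusted p = 1.0 with edgeR), as 2.25% of all genes did in this direction. Without 1 library the number of such genes was 0 to 5, with 5 without KI PFOA library 80 and 3 without KO PFOA library 155. The medians of these 2 fits were -0.44 and -0.42, and the share of all genes in them is not given here. The number was 0 with RLE factors, filterByExpr or sex as a covariate. Myh11 was at 756, 659 and 621 CPM in KO vehicle libraries 137, 145 and 149 and at 658, 501.8 and 865 CPM in KO PFOA libraries 52, 154 and 155. The KI vehicle libraries 102, 116 and 135 were at 1039, 909 and 985 CPM, and the KI PFOA libraries 57, 80 and 139 at 870, 530 and 1231 CPM. KI vehicle thus lay above all 6 KO libraries, while KI PFOA library 80 lay below all of them but 154.

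Tested as differences between effects, 0 of the 10 genes were called in any of the 3 contrasts with edgeR or DESeq2, and edgeR called 0% of all genes in each. These contrasts share the WT, KO and KI libraries with the comparisons above. The PFOA effect was more positive in KO than in WT for 9 of the 10 genes, with a median difference of 0.80. Actg2 at 1.501 (SE 0.53, adjusted p = 0.669 with edgeR) and Tagln at 0.83 (SE 0.35, adjusted p = 0.669 with edgeR) had an unadjusted p under 0.05, against 7.46% of all genes. Between KI and WT the median difference was 0.53, and Actg2 at 1.16 (SE 0.53, adjusted p = 0.999 with edgeR) and Lmod1 at 0.79 (SE 0.38, adjusted p = 0.999 with edgeR) were at this level, against 4.58% of all genes. Myocd was the 1 gene of the 10 with a negative difference in both contrasts. Between KO and KI the median was 0.26 and 0 genes were at this level, against 5.42% of all genes. Leaving out 1 WT library moved these numbers both ways. Without library 122 the medians were 0.26 between KO and WT and 0.13 between KI and WT. Without library 107 the medians were 1.08 and 0.82, and without WT PFOA library 65 they were 1.03 and 0.81. None of the 10 was called in these fits (edgeR). With the i5 index as a covariate the medians were 0.53 between KO and WT, 0.058 between KI and WT and 0.65 between KO and KI. Between KI and WT, 4 of the 10 genes then had a negative difference.

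Over the 17 libraries the contractile genes were high and low together. Among their 45 pairs, the Pearson correlation of log2 CPM had a median of 0.835 and ran from 0.478 to 0.969, and the Spearman correlation had a median of 0.797. With each group's mean taken out, the median Pearson correlation was 0.799 (0.393 to 0.984), so the common pattern was present between libraries of the same group. The points share the libraries and their scaling, and the values are descriptions. Des followed the mean of the other 9 genes most closely (0.949) and Myocd least (0.641). The summed level of the 10 genes ran from 1146 CPM in WT PFOA library 50 to 3204 CPM in WT vehicle library 122. The ratio of the highest to the lowest library ran from 1.81 for Smtn to 5.47 for Actg2.

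The genes outside the marker lists whose log2 CPM was most like the standardised mean of the 10 genes were sought among 19201 genes with 1 CPM or more on average, by Pearson correlation over the 17 libraries. The first was Map1b (0.938), which encodes a microtubule-associated protein. The next were Rsph4a (0.919), Cfap52 (0.919), Cfap126 (0.909), Dnaic2 (0.908), Ppp1r36 (0.906), Rsph3b (0.899), Cabcoco1 (0.898), Armc4 (0.897) and Wdr35 (0.887). Rsph4a and Rsph3b encode parts of the radial spokes of motile cilia, and Dnaic2 and Armc4 a dynein chain and a dynein docking factor of cilia. Rsph4a was at 32.2 and 89.1 CPM in the WT vehicle libraries 107 and 122 and at 20.02, 19.6 and 29.0 CPM in the WT PFOA libraries 50, 56 and 65. Its highest library was 122, as for most of the contractile genes.

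**Figure D4:**
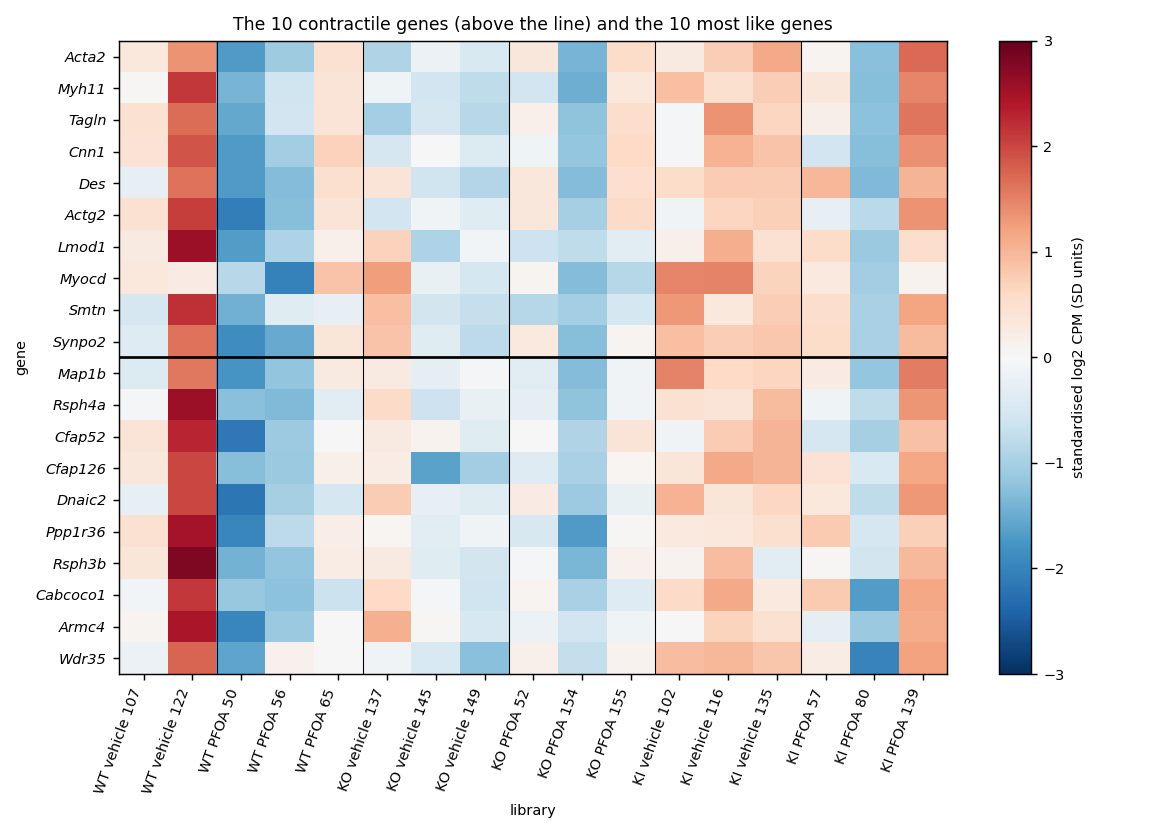
Log2 CPM of the 10 contractile genes (above the line) and of the 10 genes most like them (below it) in the 17 libraries, each gene standardised to mean 0 and SD 1 over the libraries. Library 122 is high and library 50 low in both blocks, and Myocd in library 122 is an exception to the first.

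Markers of airway epithelium moved with the contractile genes, though not in every library. The list held 6 genes of club cells, the secretory cells of small airways, and 9 genes of ciliated cells, none of them at 0 in any library. Their summed level was 5678 to 27724 CPM. It was highest in library 122, which was also first for the contractile sum, and was 13086 CPM in library 107 and 8113, 8343 and 10304 CPM in WT PFOA libraries 50, 56 and 65. KI PFOA library 139 was the second highest in the contractile sum and the third in the airway sum, and KO PFOA library 154 was the second lowest and the lowest. Other libraries differed in rank. Library 107 ranked 2 in the airway sum and 9 in the contractile sum. KI vehicle library 102 ranked 9 and 5, and KO vehicle library 149 ranked 8 and 13. Club cell genes made up most of the airway sum, at 5385.3 to 26888.5 CPM, and ciliated cell genes summed to 231 to 835 CPM. By the ciliated sum alone, library 107 ranked 12 and KO vehicle library 137 ranked 2. That sum was 835 CPM in library 122, 346 CPM in library 107 and 344 CPM in WT PFOA library 65. In WT on PFOA, 9 of 9 ciliated cell genes and 4 of 6 club cell genes were lower at an unadjusted p under 0.05, against 4.23% of all genes. Their median log2 fold changes were -1.18 and -1.08, and 0 were called (edgeR). Of the club cell genes 1 was higher, at 2.05. Over the genotypes 9 of 9 and 2 of 6 were lower at this level, against 4.47% of all genes. Scgb1a1, Cyp2f2, Cckar, Foxj1, Ccdc40 and Ak7 of these lists are among the genes that the study itself lists as lower in WT on PFOA. The lists were chosen with those results known, so these counts are descriptions. The part of airway content in the contractile differences was not tested.

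Markers of heart muscle varied widely between libraries. The sum of 12 cardiac genes was 574 CPM in KO vehicle library 145 and 13302 CPM in KI vehicle library 102. Myl3 was at 0 in 2 libraries and Nppa in 6, and the other 10 cardiac genes were found in every library. In KO against KI all 12 were lower, with a median log2 fold change of -1.85. Of these, 10 had an unadjusted p under 0.05, against 2.25% of all genes in this direction. Desmin is a filament of heart muscle too, and the ratio of Des to Acta2 CPM was set beside these sums. It was 0.902 to 1.21 in 15 libraries, 1.45 in KI PFOA library 57, where the cardiac sum was 11356 CPM, and 1.60 in KO vehicle library 137, where it was 4158 CPM. Library 102, with the highest cardiac sum, had a ratio of 1.19. The part of heart tissue in the level of Des was not tested. The summed level of 8 skeletal muscle genes was 3.80 to 68.2 CPM.

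**Figure D5:**
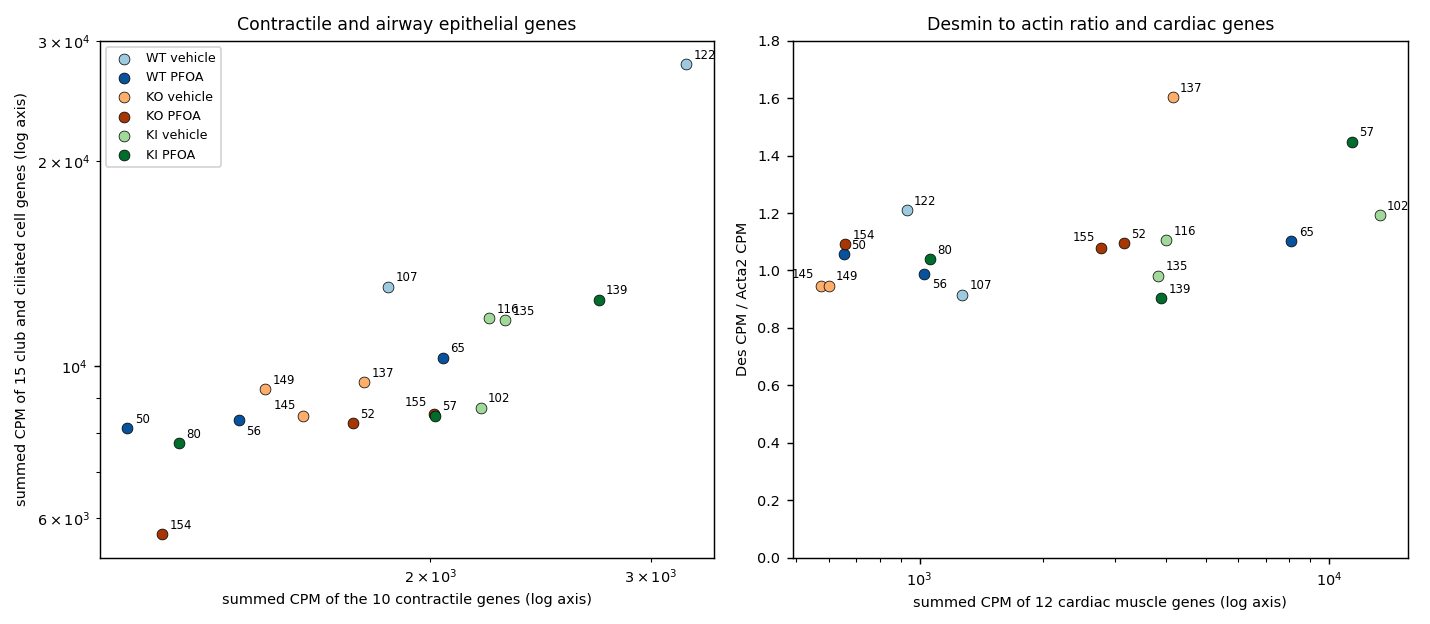
Left, summed CPM of the 10 contractile genes against that of the club and ciliated cell genes, both on log axes. Right, the ratio of Des to Acta2 CPM against the summed CPM of the cardiac genes (log axis). Points are libraries with their numbers, coloured by group, and library 122 is at the top right of the first panel while libraries 137 and 57 have the highest ratios in the second.

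Of the other cell types of the vessel and airway wall, pericyte genes summed to 453 to 527 CPM in WT vehicle and 531 to 595 CPM in WT PFOA. Fibroblast genes were at 1998 to 3409 and 2724 to 3384 CPM, and endothelial genes at 1745 to 2664 and 2728 to 3089 CPM. In each of these lists the lower WT vehicle value was that of library 122. On PFOA in WT, 8 of 10 pericyte genes and 8 of 8 endothelial genes had a log2 fold change above 0, with medians of 0.18 and 0.40, and 0 were called (edgeR).

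Immune cell genes were higher in WT on PFOA for 7 of 7 markers, with a median log2 fold change of 1.17. Of these, 2 had an unadjusted p under 0.05, against 7.35% of all genes in either direction. Their summed level was 104 to 127 CPM in WT vehicle and 158 to 193 CPM in WT PFOA, and Ncr1 was at 0 in 1 library. Over the genotypes 5 of the 7 were higher at this level, against 8.27% of all genes in either direction. The study itself lists Ncr1 as higher in WT on PFOA, which was known when the immune list was chosen, so these counts are descriptions. The 12 heart muscle markers were all higher in WT on PFOA too, with a median of 1.73 and 0 at an unadjusted p under 0.05, and their sums were 931 to 1272 and 654 to 8099 CPM. Of 6 genes listed for mesothelial cells, the outer lining of the lung, 5 were higher and 1 was lower, with a median of 0.56. At an unadjusted p under 0.05, 0 were higher and 1 was lower, against 4.23% of all genes lower. Their sums were 163 to 245 and 171 to 225 CPM. Krt19, at 94.4 to 152 CPM over the 17 libraries, made up a large part of these sums. None of these genes was called in WT (edgeR), and their part in the contractile differences was not tested.

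The rest of the contractile apparatus held genes of both directions in WT. Of 25 further genes of filaments, myosin regulation and anchorage, 16 were lower and 9 higher on PFOA in WT, with a median log2 fold change of -0.11, and 0 were called (edgeR). Tpm2, the β-tropomyosin that covers the actin filament, was at -0.87 (SE 0.31, adjusted p = 0.544 with edgeR), and correlated with the mean of the 10 genes at 0.942. Actn1, the actin cross-linker α-actinin-1, was at -0.46 and Mustn1 at -0.48 (adjusted p = 0.544 and 0.621, edgeR). These 3 had an unadjusted p under 0.05, all lower, against 4.23% of all genes in this direction. In KO the 1 such gene of the 25 was Ppp1r14a, an inhibitor of myosin phosphatase, at 0.45 (adjusted p = 0.473 with edgeR). This was against 9.79% of all genes in either direction. In KI there was none, against 2.59% of all genes. Over the genotypes Ppp1r14a was at 0.24 and Pdlim7 at -0.22 (adjusted p = 0.511 and 0.588, edgeR). They were the only ones of the 25 at this level, against 8.27% of all genes.

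Between genotypes, some apparatus genes had a small adjusted p but a fold under 2. In KO against WT, Synm, an intermediate filament partner of desmin, was at -0.36 (SE 0.10, adjusted p = 0.085 with edgeR). The myosin light chain kinase Mylk, whose product starts contraction, was at -0.29, and the phosphatase subunits Ppp1r12b and Ppp1r14a were both at -0.34 (adjusted p = 0.166, 0.115 and 0.138, edgeR). In KI against WT, 1 of the 25 genes was called, beside 1.37% of all genes, which was Pln, the phospholamban gene of smooth and heart muscle, at 1.15 (SE 0.32, adjusted p = 0.105 with edgeR). Its group means were 10.8 and 13.1 CPM in WT vehicle and WT PFOA and 25.2 and 28.1 CPM in KI vehicle and KI PFOA. It was not called without any one of the libraries 122, 50, 56, 102 and 57, where the log2 fold change was 0.84 to 1.04 and the adjusted p of edgeR was above 0.2. Libraries 102 and 57 also had the highest cardiac sums. In KO against KI, Hspb6, a small heat shock protein of muscle, was at -1.16 and Myl9, the regulatory myosin light chain, at -0.55 (adjusted p = 0.643 and 0.968, edgeR). With DESeq2, Hspb6 was called, at -1.13. All 12 heart muscle markers were lower in KO than in KI too, and the part of heart tissue in these values was not tested.

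Serum response factor, myocardin-related factors and their partners were measured for 12 of 14 symbols, and Mkl1 and Mkl2 are older names of Mrtfa and Mrtfb. On PFOA, 0 of the 12 had an unadjusted p under 0.05 in WT (7.35% of all genes), with a median log2 fold change of 0.12. Mrtfa, a partner of serum response factor that senses free actin, was at 0.41 in KO and 0.21 over the genotypes (adjusted p = 0.473 and 0.567, edgeR). In each it was the 1 gene of the 12 at an unadjusted p under 0.05, against 9.79% and 8.27% of all genes. Klf4, a factor known to hold back the contractile genes, was at -0.83 in KI (SE 0.23, adjusted p = 1.0 with edgeR), with group means of 132 CPM on vehicle and 74.1 CPM on PFOA. It was the 1 gene of the 12 at this unadjusted level in KI, against 2.59% of all genes. Tgfb1i1, a focal adhesion protein that binds serum response factor, was higher in both other genotypes than in WT. Its log2 fold change was 0.45 in KO (SE 0.10, adjusted p = 0.0234 with edgeR) and 0.57 in KI (SE 0.10, adjusted p = 0.00506 with edgeR), both with a fold under 2. The WT means were 42.6 and 44.3 CPM and the others lay between 58.5 and 69.98 CPM.

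Receptors, channels and signalling enzymes of contraction were measured for 20 of 22 symbols. In WT 0 of the 20 had an unadjusted p under 0.05 on PFOA (7.35% of all genes), and the median log2 fold change was 0.065. In KO, the calcium channel Cacna1c was at -0.33 (adjusted p = 0.499 with edgeR). There 1 of the 20 was lower and 1 higher at an unadjusted p under 0.05, against 9.79% of all genes. In KI the channel subunit Cacnb2 was at -0.34 (adjusted p = 1.0 with edgeR), and over the genotypes the potassium channel Kcnma1 was at -0.61 (adjusted p = 0.501 with edgeR). Each was the 1 gene of the 20 at this level, against 2.59% and 8.27% of all genes. The muscarinic receptor Chrm2 was at -0.72 in KO against KI (adjusted p = 1.0 with edgeR). It was 1 of 3 genes of the 20 that were lower at this level, against 2.25% of all genes in this direction. All 12 heart muscle markers were lower in KO than in KI too, and the part of heart tissue was not tested.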

How the data were processed

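RNA of 17 mouse lungs was measured by RNA sequencing of total RNA with a stranded kit. The authors removed poor bases at read ends, used STAR 2.6 (Partek Flow) for alignment to the mm10 build, and estimated counts per gene by expectation maximization. The authors deposited these estimated counts without normalization, and 29.9% of the values are not whole. The annotation release is not given in the sources used here. Gene starts matched GENCODE M21, from which lengths and overlaps were taken.

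The counts were rounded, and genes whose summed count was below 20 were left out, which left 26946 to test with edgeR 4.0.16 (R 4.3.3), with TMM factors and the quasi-likelihood F-test without robust estimation over all 17 libraries. The exposure effects within genotypes and their differences came from a fit of 1 coefficient per group, and the other comparisons from an additive fit of genotype and exposure. Benjamini-Hochberg adjustment was over all of them, and a gene was called when its adjusted p was under 0.2 and its fold over 2, as in the study. CPM use the TMM factors. The text names the 10 genes, up to 4 genes per comparison of 3 further smooth muscle lists with the smallest p among those at an unadjusted p under 0.05, of which only some are given, and the 10 genes most like the mean. The 10 genes and all lists were chosen with earlier results of these data known. Two-group fits within a genotype, DESeq2 1.42.0, RLE factors, no filter, filterByExpr, sex or i5 index as covariates, robust estimation, an adjusted p under 0.05 and each library left out were the alternatives, and libraries 122 and 137 were left out together after the values were seen. No pair of replicates agreed within sampling noise, the lowest chi-square per degree of freedom being 6.28. The tests were tried on simulated data first. Counting intervals and floors cover counting error only. Promoter sequences are those of RefSeq. Other software was numpy 2.4.6, scipy 1.17.1, matplotlib 3.10.9, pandas 2.3.3 and Python 3.11.15. A gene of the named lists is not reported here.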

Additional observations from a re-analysis of the deposited data

Results flagged for a closer look

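Actg2 and Tagln had PFOA effects that differed between KO and WT at an unadjusted p under 0.05 of edgeR's quasi-likelihood test of the difference, by 1.501 (unadjusted p = 0.0106, adjusted p = 0.669) and by 0.83 (unadjusted p = 0.0307, adjusted p = 0.669) on the log2 scale. Actg2 and Lmod1 differed in the same way between KI and WT, by 1.16 (unadjusted p = 0.0394, adjusted p = 0.999) and by 0.79 (unadjusted p = 0.0497, adjusted p = 0.999). None of these passes the adjustment over all genes, and all of them rest on the same 2 WT vehicle libraries. Without library 122 the differences of Actg2 were 0.95 and 0.61, that of Tagln 0.59 and that of Lmod1 0.20.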

How the results depend on the processing

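No paired analysis was possible because the groups share no replicate numbers. Of the 10 comparisons, 9 had 0 contractile genes called under every alternative. In WT on PFOA the number called was 0 to 5 over the fits without 1 library, with 5 without WT vehicle library 107 and 0 without any other, and 0 under the other alternatives. Over all genes, edgeR called 0 on PFOA within each genotype (WT, KO, KI) or over all 3, and 0 in each of the 3 differences of effects, while DESeq2 called 24, 68, 1 and 26, and 3 (KO and WT), 1 (KI and WT) and 3 (KO and KI). In KO against KI, edgeR called 2 and DESeq2 10. Without library 107 edgeR called 1672 genes in WT. The number of the 10 genes lower in WT at an unadjusted p under 0.05, which is 6, was 2 after adding the i5 index to the fit, 0 without libraries 122 and 137 together (chosen after seeing the data), and 0 to 9 without 1 library. Over the genotypes it is 3, and was 1 without libraries 122 and 137 together and 1 to 7 without 1 library. Myocd in WT turned to 0.053 with that index, and Actg2 in KI to 0.029 and 0.13 without PFOA libraries 57 and 80, over a range of -0.58 to 0.13 without 1 library. The cause was not tested. In WT, the share of all genes at an unadjusted p under 0.05 moved as well without library 122 or 107. It is not given here for the other WT fits, so the counts cannot be read as particular to the 10 genes. The other log2 fold changes given kept their sign under these alternatives. The lowest count of the 10 genes in a library was 44, for Myocd, and every WT value rests on 2 vehicle libraries.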
